A study of Mus musculus and Mus spretus with 72 samples.

Results

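The 10 genes described here, Umod, Cdh16, Slc12a3, Aqp2, Slc34a1, Slc5a2, Slc22a6, Miox, Napsa and Kap, are known for high expression in the epithelium of the kidney tubule, and were taken by name from the 14386 gene symbols that the array's probe table lists. Each was measured by 1 probe, and all 10 probes were among the 20652 tested in liver/kidney. None of the 10 is a glomerular gene by general knowledge, so glomerular markers are given further on as a separate list. The arrays had 2 channels, and each set the RNA of 1 male mouse of about 12 weeks against a pool of 9 C57BL6 mice of the same tissue. The 5 groups in liver/kidney were spretus (Mus spretus, 3 arrays), ssp (Mus musculus of a sub-species that the labels do not name, 6 arrays), cas (Mus musculus castaneus, 3 arrays), mus (Mus musculus musculus, 6 arrays) and dom (Mus musculus domesticus, 6 arrays), 24 arrays in all. The last 4 are called the 4 musculus groups, and every group was set against the same C57BL6 pool. No allele, treatment or strain name is given for the wild-derived groups.

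The tubule is a chain of segments, each with its own transporters. The proximal tubule takes back glucose, phosphate and filtered protein and secretes organic anions. The thick ascending limb and the distal convoluted tubule take back salt, and the collecting duct sets how much water is kept. In mice several proximal tubule genes also respond to androgens.

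Each value is a log ratio of a mouse to the pool, on a log2 scale, so that 1 is a doubling relative to the pool. Scale and direction are assumptions, since the sources used here state neither: log2 is assumed, and mouse over pool is the likely direction because the mouse is channel 2 on every array. A log ratio carries no absolute level, so neither the presence of kidney epithelium nor its share in the liver/kidney samples could be checked. The way liver and kidney were joined in a sample is not stated, and in bulk samples fewer cells of a type and less RNA per cell cannot be told apart. Probe sequences were not available, so how well the RNA of each group and of the pool matches the probes was not tested. The arrays of a group are separate males, and the p-values measure the spread between them.

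Between 42825 and 44832 of the 46128 spots per liver/kidney array carried a value. The arrays fell into 3 sets by which spots were missing: all 18 ssp, mus and dom arrays, then the 3 cas arrays with spretus 01 and 03, and spretus 02 alone. Correlations of missing spots were 0.525 to 0.700 within a set and -0.016 to 0.030 between sets. The labels name no batch, so these are called array sets. The cas and the dom and mus arrays lay in different sets, so cas and set cannot be told apart in that comparison. No spretus array shared a set with the 18 ssp, mus and dom arrays, so spretus and set cannot be told apart against those arrays either. Only spretus 01 and 03 shared a set with a musculus group, cas. The array spretus 02 stood apart: over all probes it correlated with the other liver/kidney arrays at -0.04 to 0.18, although its duplicate spots correlated at 0.61. Results that rest on it are given with and without it. In brain, the title of mus 08 says mus but its channel label says domesticus. It was kept in mus, and brain values are given without it too.

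Promoters were found in the RefSeq promoter table (GRCm38.p6) for 7 of the 10 genes. The 250 bases before the start site are shown for 3 of them. Umod had the widest difference among mouse groups that passed the test, and its window lies at chr7:119479263-119479512 on the minus strand. Slc34a1, at chr13:55399398-55399647 on the plus strand, followed Umod most closely in its positive deviations among the other 9 genes. Kap, at chr6:133853668-133853917 on the minus strand, had the widest spread between mice. Capitals mark GTTAAT or its reverse complement ATTAAC, the core of the site bound by the tubule and liver factor HNF1, and TATAAA, the TATA box.
Umod: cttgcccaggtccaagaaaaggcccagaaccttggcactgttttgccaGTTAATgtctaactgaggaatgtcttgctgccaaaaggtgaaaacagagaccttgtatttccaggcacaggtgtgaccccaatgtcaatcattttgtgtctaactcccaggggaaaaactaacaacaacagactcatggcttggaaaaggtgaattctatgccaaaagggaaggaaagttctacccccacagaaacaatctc
Slc34a1: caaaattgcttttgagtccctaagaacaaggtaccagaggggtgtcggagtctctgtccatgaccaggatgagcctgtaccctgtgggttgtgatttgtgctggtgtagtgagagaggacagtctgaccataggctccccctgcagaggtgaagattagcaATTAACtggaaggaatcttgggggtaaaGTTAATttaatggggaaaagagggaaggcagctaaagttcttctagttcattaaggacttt
Kap: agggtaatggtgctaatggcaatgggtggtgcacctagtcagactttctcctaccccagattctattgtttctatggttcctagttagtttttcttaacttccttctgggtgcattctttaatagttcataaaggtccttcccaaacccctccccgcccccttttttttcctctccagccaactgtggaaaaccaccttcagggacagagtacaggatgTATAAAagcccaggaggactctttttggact
The HNF1 core lay 202 bases before the start site in Umod, 61 and 89 bases before it in Slc34a1 (the second on the opposite strand), 56 in Slc22a6 and 142 in Miox. On either strand it was present in 4 of the 7 windows, and in 6.43% of all 32851 windows of 250 bases in the table. The TATA box lay 31 bases before the start in Kap, 32 in Slc12a3 and 40 in Miox, which makes 3 of 7 windows against 12.4% of all windows. The window of Aqp2 held neither run of letters. The 2 motifs do not overlap within a window, and a match is a description of the letters only.

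Set against the 4 musculus groups, spretus differed most in Umod, which was 1.64-fold higher, and in Slc5a2, which was 1.32-fold lower. These were 2 of the 10 genes, 1 in each direction, where 7.49% of all 20652 probes passed an adjusted p of 0.05 in limma (3.03% higher, 4.46% lower). The median difference of the 10 genes was -0.05 on the log2 scale, with a median size of 0.22, beside -0.002 and 0.11 over all probes. At an unadjusted p of 0.05, 4 of the 10 genes and 21.6% of all probes passed. Within the musculus groups, cas differed from dom and mus in Umod, 1 of 10 genes against 1.11% of probes (0.852% higher, 0.261% lower). The difference of mus from dom passed in limma for 0 of 10 genes, with 1 at an unadjusted p under 0.05 (0.591% of probes passed, 0.484% higher and 0.107% lower). That of ssp from dom, mus and cas passed for 0 of 10 as well, with 2 at an unadjusted p under 0.05 (0.0436% of probes passed, 0.0291% higher and 0.0145% lower).

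**Figure D1:**
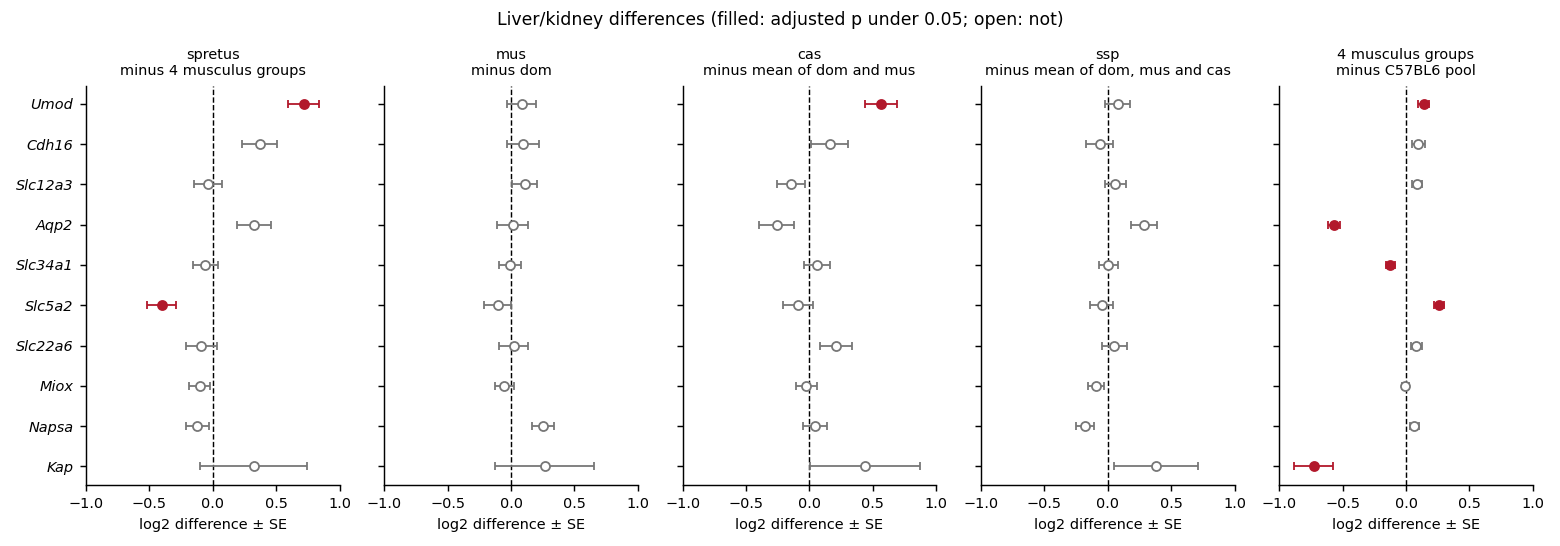
Log2 differences ± SE of the 10 genes (rows) in the 5 comparisons of liver/kidney (panels), from limma. Filled red points passed an adjusted p of 0.05: Umod and Slc5a2 for spretus, Umod for cas, and Umod, Slc5a2, Aqp2, Slc34a1 and Kap for the 4 musculus groups against the pool.

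Umod encodes uromodulin, the most abundant protein of normal urine, made by the thick ascending limb. Its log2 ratio to the pool was 0.71, 1.03 and 0.83 in spretus 01, 02 and 03. It ran over -0.14, 0.21 and 0.56 in ssp (lowest, median, highest), and was 0.48, 0.63 and 0.37 in cas. In mus it was -0.17, -0.03 and 0.10, and in dom -0.48, -0.05 and 0.06. All 3 spretus arrays lay above all 21 musculus arrays, and all 3 cas arrays above all 12 mus and dom arrays. How many of all probes separate the same groups was not counted. The order of the means was spretus (0.85 ± 0.16), cas (0.49 ± 0.13), ssp (0.20 ± 0.29), mus (-0.03 ± 0.10) and dom (-0.11 ± 0.21; SD, n = 3, 3, 6, 6 and 6). In that order only spretus and cas did not overlap with each other, while cas and ssp, ssp and mus, and mus and dom each did. Spretus and cas, which had the highest means, are also the groups outside the array set of ssp, mus and dom.

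The limma difference of spretus from the musculus groups was +0.72 ± 0.12 for Umod (SE; adjusted p = 0.000957). Without spretus 02 it was +0.63 ± 0.14 (limma adjusted p = 0.0118). With the array set as a random block it was +0.72 ± 0.18, no longer past the threshold (limma adjusted p = 0.0606). Within the set that holds cas and spretus, spretus 01 and 03 exceeded cas by 0.27 ± 0.12 (limma adjusted p = 0.681), a fit in which 0 of all 21097 probes passed. The cas difference from dom and mus was +0.56 ± 0.13 (1.48-fold, limma adjusted p = 0.0301). It kept its size but missed the threshold without cas 01 (adjusted p = 0.0527), cas 02 (0.109) or cas 03 (0.0614).

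Slc5a2 encodes SGLT2, the glucose transporter of the early proximal tubule, and moved the other way. Its log2 ratio was 0.09, -0.17 and -0.34 in spretus 01, 02 and 03. In ssp it ran over 0.04, 0.19 and 0.50, and in cas it was 0.46, 0.03 and 0.14. In mus it ran over 0.00, 0.30 and 0.45, and in dom over 0.14, 0.32 and 0.71. All 21 musculus arrays were above the pool, and 2 of 3 spretus arrays were below it, with spretus 01 inside the musculus range. The spretus difference was -0.40 ± 0.11 (limma adjusted p = 0.0336). It was -0.38 ± 0.14 without spretus 02 (adjusted p = 0.123) and -0.30 ± 0.13 without spretus 03 (adjusted p = 0.184). It also missed the threshold in 6 of 9 other settings, among them the array set as a random block (adjusted p = 0.372) and the comparison of spretus 01 and 03 with cas within their set (-0.34 ± 0.19, adjusted p = 0.713).

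Cdh16 encodes kidney-specific cadherin, an adhesion protein of tubule cells. Its log2 ratio was 0.23, 0.91 and 0.26 in spretus 01, 02 and 03, against a range of -0.36 to 0.45 in the 21 musculus arrays. Only spretus 02 lay outside that range. The difference of +0.37 ± 0.14 did not pass (limma adjusted p = 0.108), and without spretus 02 it was +0.15 ± 0.15 (adjusted p = 0.706).

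**Figure D2:**
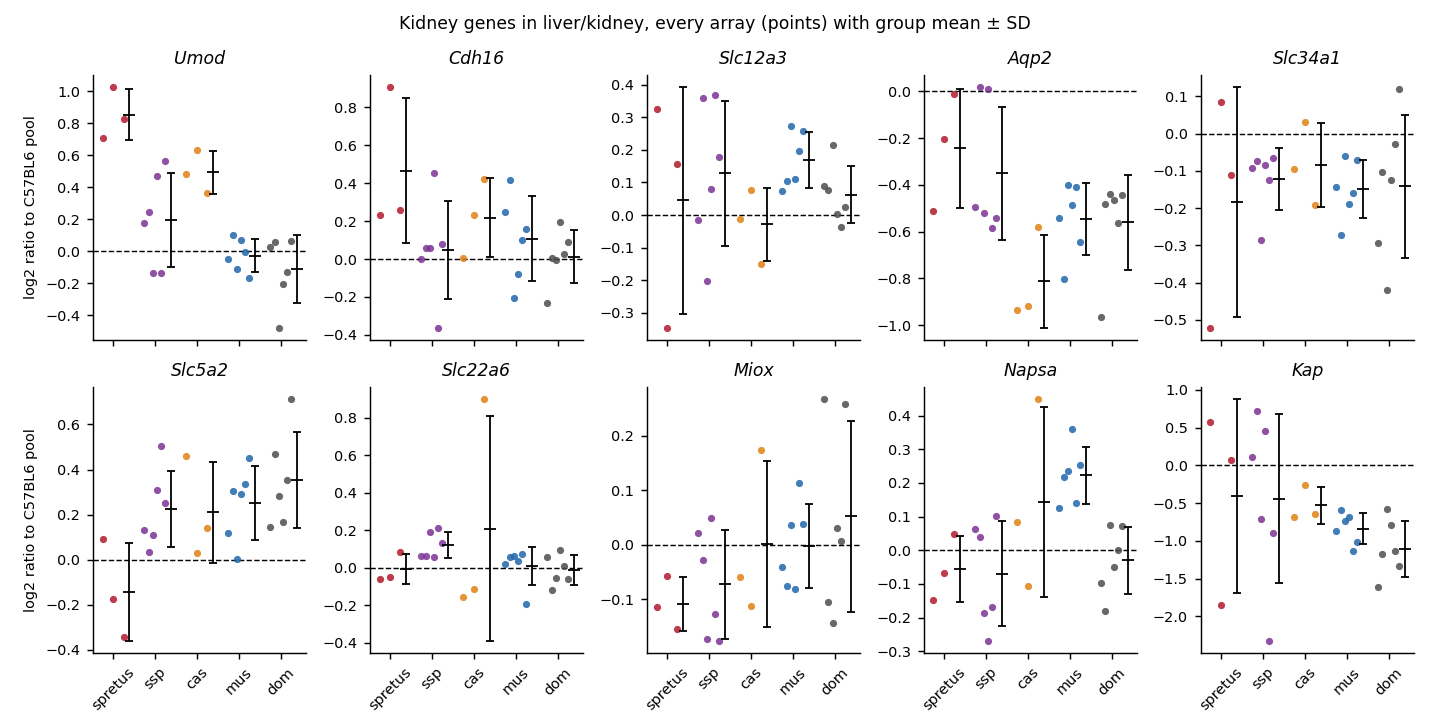
Log2 ratio to the C57BL6 pool (vertical axis, a scale of its own in each panel) of the 10 genes on all 24 liver/kidney arrays, with groups on the horizontal axis. Points are arrays, bars are group mean ± SD, and the dashed line is the pool. Umod is above all musculus arrays in the 3 spretus arrays, Aqp2 is below the pool on all but 2 arrays, and Kap has the widest scatter, from -2.32 to 0.72.

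Aqp2 encodes the water channel that vasopressin moves to the apical membrane of collecting duct cells. Its log2 ratio was -0.51, -0.21 and -0.01 in spretus 01, 02 and 03. In ssp it ran over -0.58, -0.51 and 0.02, and in cas it was -0.94, -0.92 and -0.58. In mus it ran over -0.80, -0.51 and -0.40, and in dom over -0.96, -0.47 and -0.44. Of the 24 arrays, 22 lay below the pool, and the exceptions were ssp 02 (0.02) and ssp 04 (0.01). The spretus difference was +0.32 ± 0.13 (limma adjusted p = 0.139) and the ssp difference +0.29 ± 0.10 (adjusted p = 0.308), so neither passed.

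Slc34a1 encodes the main phosphate transporter of the proximal tubule brush border. Its log2 ratio was -0.52, 0.08 and -0.11 in spretus 01, 02 and 03, and between -0.42 and 0.12 in the 21 musculus arrays. The spretus 01 array lay below all musculus arrays and the other 2 within their range, and the spretus difference was -0.06 ± 0.10 (limma adjusted p = 0.796). Napsa encodes napsin A, an aspartic protease of the proximal tubule and lung. Its log2 ratio ran over 0.13, 0.23 and 0.36 in mus and over -0.18, -0.02 and 0.07 in dom. All mus arrays lay above all dom arrays, and how many of all probes separate these groups was not counted. The difference of +0.25 ± 0.08 did not pass over all probes (limma adjusted p = 0.339). With array weights the difference was +0.28 ± 0.07 and passed (adjusted p = 0.0408).

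The remaining genes are Slc12a3, Slc22a6 and Miox. Slc12a3, the thiazide-sensitive salt cotransporter of the distal convoluted tubule, ranged from -0.35 (spretus 02) to 0.37 (ssp 05). Slc22a6 encodes OAT1, the organic anion transporter of the basolateral proximal tubule. It stayed between -0.19 and 0.21 on all arrays but cas 03, at 0.90, which left the cas mean at 0.21 ± 0.60 (SD, n = 3). The duplicate spots of Slc22a6 correlated at 0.34 in liver/kidney, the lowest of the 10 genes, beside a median of 0.45 over all probes. Miox, the inositol oxygenase of the proximal tubule, ranged from -0.18 (ssp 06) to 0.27 (dom 01), the narrowest range of the 10 genes. None of the 3 passed in limma in any of the 4 comparisons among mouse groups.

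Kap encodes kidney androgen-regulated protein, which in male mice is made in the proximal tubule in large amounts. Its log2 ratio was 0.57, -1.85 and 0.07 in spretus 01, 02 and 03. The 6 ssp arrays 01 to 06 had 0.12, 0.72, -0.71, 0.46, -2.32 and -0.90. In cas it was -0.69, -0.25 and -0.65, in mus it ran over -1.13, -0.80 and -0.59, and in dom over -1.61, -1.15 and -0.58. All 15 cas, mus and dom arrays were below the pool, whereas spretus and ssp each had arrays on both sides. The duplicate spots of Kap correlated at 0.997 over the 24 arrays, higher than for nearly all probes, so the scatter was shared by both spots. The spretus difference was +0.32 ± 0.42 (limma adjusted p = 0.731), and +1.05 ± 0.43 without spretus 02 (adjusted p = 0.188). Without spretus 01 it was -0.16 ± 0.48, so its sign rested on 1 array.

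The SD of Kap within groups was 0.746 on the log2 scale, wider than in 99.7% of the probes, beside a median of 0.163 over all probes in liver/kidney. Of the other 9 genes, Cdh16 (0.237), Aqp2 (0.222), Slc22a6 (0.210) and Umod (0.205) had the widest spread, and Miox (0.123) and Napsa (0.143) the narrowest. The median SD of the 10 genes was 0.198 in liver/kidney, 0.201 in brain (0.202 without mus 08) and 0.134 in testis, beside 0.163, 0.173 and 0.153 over all probes. Compared with the same probe in brain, 6 of 10 genes were wider in liver/kidney, and compared with testis 8 of 10. Kap had 0.746 in liver/kidney, 0.347 in brain and 0.183 in testis, while Miox had 0.123, 0.385 and 0.735. The testis value of Miox rests on spretus 02, where it was 4.06, against 0.12 and 0.23 in spretus 01 and 03, and its duplicate spots there correlated at 0.18 over the testis arrays.

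**Figure D3:**
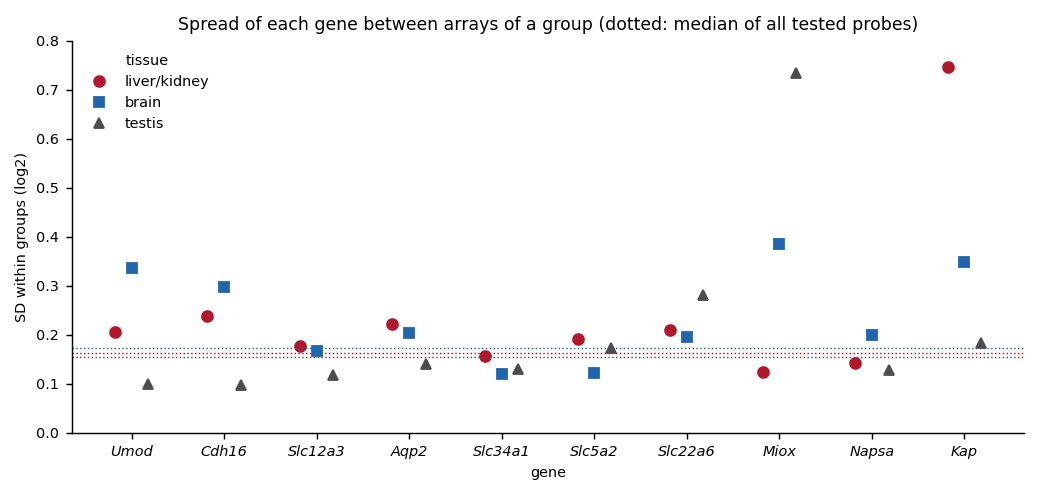
SD within groups on the log2 scale (vertical axis) of each gene (horizontal axis) in liver/kidney, brain and testis (24 arrays each), with the median of all tested probes of each tissue as a dotted line. Kap stands at 0.746 in liver/kidney and Miox at 0.735 in testis.

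Set against the C57BL6 pool, the 4 musculus groups passed for 5 of 10 genes, 2 higher and 3 lower, where 31.4% of all probes passed (17.4% higher, 14% lower). The pool is 1 sample on every array, so this comparison leaves out the spread of C57BL6 itself, and with a fixed channel arrangement dye and group cannot be told apart. Kap was 1.66-fold lower (-0.73 ± 0.15, limma adjusted p = 0.000943, below the pool on 18 of 21 arrays). Aqp2 was 1.48-fold lower (-0.57 ± 0.05, adjusted p = 6.1e-09, on 19 of 21). Slc34a1 was 1.09-fold lower (-0.12 ± 0.04, adjusted p = 0.0106, on 19 of 21). Slc5a2 was 1.20-fold higher (+0.26 ± 0.04, adjusted p = 5.2e-05, on 21 of 21), and Umod 1.10-fold higher (+0.14 ± 0.04, adjusted p = 0.0222, on 12 of 21). The call for Umod was lost without cas 02 (limma adjusted p = 0.0715) and from the second spot alone. That for Slc34a1 was lost from the first spot alone. With the array set as a random block only Aqp2 still passed (adjusted p = 0.0431).

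The same probes were set against brain and testis, where these genes are not known as tissue markers. In 1 limma model of all 72 arrays, the musculus difference from the pool was lower in liver/kidney than in brain by 0.90 ± 0.15 for Kap (adjusted p = 6.0e-06) and by 0.59 ± 0.06 for Aqp2 (adjusted p = 4.2e-11). For Slc5a2 it was higher by 0.22 ± 0.05 (adjusted p = 0.00209). These were 3 of 10 genes, where 9.88% of probes passed, and the same 3 passed without brain mus 08. Against testis 5 of 10 genes passed, where 25.3% of probes did: Aqp2, Kap and Slc34a1 were lower in liver/kidney, and Slc5a2 and Slc22a6 higher. For spretus, the Umod difference exceeded that in brain by 0.69 ± 0.20 and missed the threshold (limma adjusted p = 0.0501, and 0.0546 without brain mus 08; 1.9% of probes passed). It exceeded that in testis by 0.47 ± 0.20 (adjusted p = 0.166). The Slc5a2 difference was -0.21 ± 0.14 against brain (adjusted p = 0.594) and -0.10 ± 0.14 against testis (adjusted p = 0.818). In testis Umod was 0.21 to 0.49 in spretus, 0.19 to 0.24 in cas, -0.08 to 0.28 in ssp and at most 0.12 in mus and dom. The duplicate spots of Umod correlated at only 0.045 over the testis arrays, beside a median of 0.532 over all probes. Slc5a2 in testis was -0.30 to -0.26 in spretus and -0.35 to -0.22 in cas. Against testis 2 of 10 genes passed for spretus (5.98% of probes), Aqp2 by +0.55 ± 0.16 (adjusted p = 0.0312) and Miox by -1.54 ± 0.40 (adjusted p = 0.0106), where the Miox value includes 4.06 in testis spretus 02. For the remaining comparisons 0 of 10 genes passed in limma. There the share of probes past the threshold was 0.0389% against brain and 0.17% against testis for mus, 1.97% and 0.398% for cas, and 0.0146% and 0.0194% for ssp.

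Over single arrays the 10 genes did not vary as a block. Among the 45 pairs, the median Pearson r of the deviations from group means was 0.050 (24 arrays), with a range of -0.60 to 0.53 and 27 pairs above 0. The median over pairs of 19621 probes was 0. On the log ratios, which keep the group differences, the median was 0.028 and the range -0.54 to 0.60. Without spretus 02 the median of the deviations was 0.045, and within the 18 ssp, mus and dom arrays 0.063. All genes of an array share its hybridisation, its pool and its median centring, so these values describe the arrays and carry no test.

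**Figure D4:**
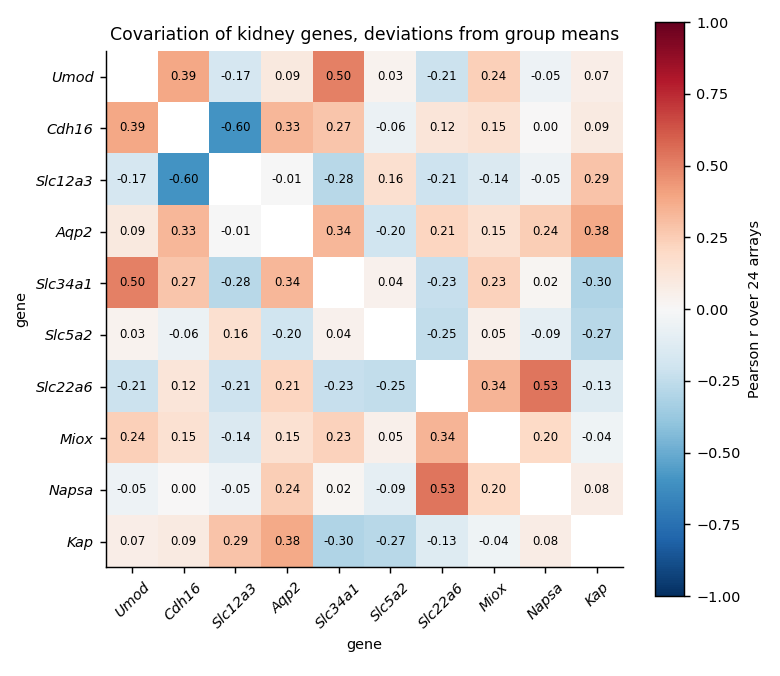
Pearson r between the 10 genes over 24 liver/kidney arrays, as deviations from group means (rows and columns are genes, colour and number give r). The strongest negative pair is Cdh16 with Slc12a3 (-0.60), the strongest positive pairs are Slc22a6 with Napsa (0.53) and Umod with Slc34a1 (0.50).

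Few pairs kept their size when arrays were left out. For the deviations of Umod and Slc34a1, r was 0.50 with Spearman's rho 0.46, and 0.45 without spretus 02 and 0.405 without the 2 arrays farthest from the median of Umod. For Cdh16 and Slc12a3 the values were -0.60 and -0.56, and -0.40 without spretus 02, where Cdh16 was highest and Slc12a3 lowest. The pair Slc22a6 and Napsa had r = 0.53 but rho = 0.19, and r = -0.16 within the 18 ssp, mus and dom arrays, a set that leaves out cas 03. Aqp2 and Kap had r = 0.38 over 24 arrays and 0.63 within the 18, but 0.036 without the 2 arrays farthest from the median of the 10-gene mean. Umod and Cdh16 had r = 0.60 on the log ratios and 0.39 on the deviations.

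The mean of the 10 genes was compared with the means of the other lists on each array. Genes were not scaled, so Kap weighs most in this mean, with an SD within groups of 0.746 beside at most 0.237 for the other genes. Kap was -1.85 in spretus 02 and -2.32 in ssp 05. The 10-gene mean lay at 0.06, -0.07 and 0.08 in spretus 01, 02 and 03, between -0.27 and 0.15 in ssp, between -0.09 and 0.09 in cas, between -0.11 and -0.05 in mus and between -0.26 and -0.05 in dom. The mean of 19 hepatocyte genes lay at -0.14, -0.38 and 0.06 in the spretus arrays and between 0.08 and 0.49 in the 21 musculus arrays, so the groups did not overlap. How often means of other genes separate these groups was not counted. Over 24 arrays the 10-gene mean correlated with the hepatocyte mean at r = 0.026 on log ratios (rho 0.23) and 0.38 on deviations (rho 0.50). These values moved with the arrays used. On log ratios r was 0.34 without the spretus arrays, 0.21 within the 18 ssp, mus and dom arrays and -0.13 without the 2 arrays farthest from the median of the 10-gene mean. On deviations it was 0.30, 0.19 and 0.37 in the same order. With the mean of 49 other kidney genes it correlated at 0.46 (rho 0.51) and 0.25 (rho 0.28). The share of liver in each sample is not known, and the part it has in any of these results was not tested.

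**Figure D5:**
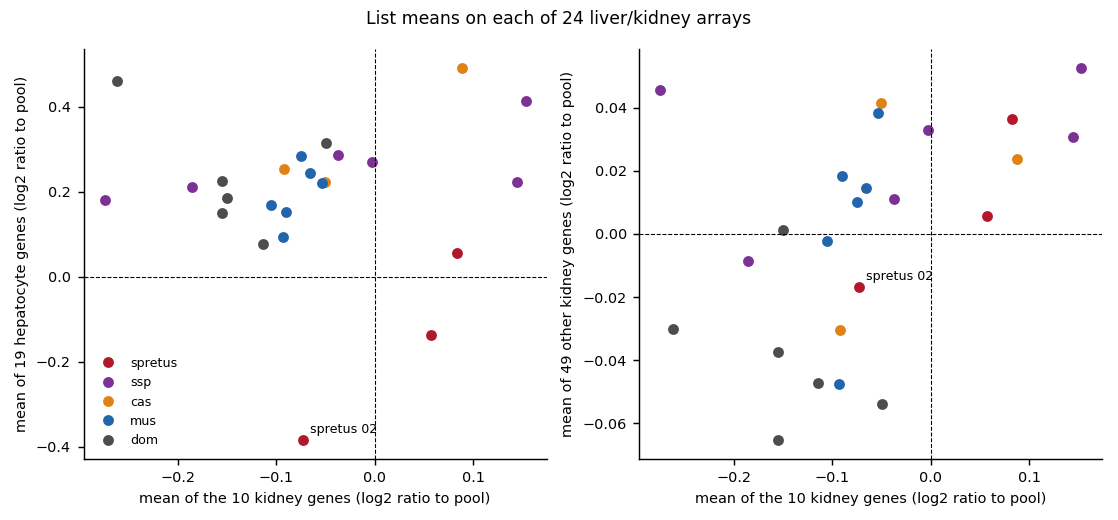
Mean log2 ratio of the 10 kidney genes (horizontal axis) against the mean of 19 hepatocyte genes (left, vertical axis) and of 49 other kidney genes (right, vertical axis), with 1 point for each of 24 liver/kidney arrays, coloured by group. Spretus 02 is lowest in hepatocyte genes at -0.38, and the other kidney genes stay within -0.07 and 0.05.

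Of 63 other kidney genes in 5 lists (proximal tubule, thick ascending limb and distal convoluted tubule, collecting duct, glomerulus, transcription factors), 49 were measured by 53 probes. For spretus 0 probes were higher and 1 lower, where 3.03% and 4.46% of all probes were. The lower one was Cldn19, a tight junction protein of the thick ascending limb (-0.42 ± 0.13, limma adjusted p = 0.0487). The spretus values of Cldn19 ran from -0.85 to -0.02. Its call was lost in 19 of 24 fits that each left out 1 array and in 6 of 9 other settings. Without spretus 02 its difference was -0.15, and 1 of the 53 probes, of the proximal tubule list, was higher and 0 lower. For cas 3 were higher and 1 lower, where 0.852% and 0.261% of all probes were. These were Wnk4, a kinase that controls distal salt transport (+0.73 ± 0.18, adjusted p = 0.0482), Lhx1, a factor of kidney development (+0.61 ± 0.11, adjusted p = 0.0107), Slc22a8, the organic anion transporter OAT3 (+0.47 ± 0.12, adjusted p = 0.0499), and the proton pump subunit Atp6v1b1 (-0.30 ± 0.07, adjusted p = 0.0415). Of 15 fits that each left out 1 array, Slc22a8 passed in 0 (limma adjusted p from 0.0535 to 0.221), Wnk4 in 2, Atp6v1b1 in 6 and Lhx1 in 14. Lhx1 failed in the fit without cas 03 (0.40, adjusted p = 0.0847). Of 8 other settings they passed in 2, 2, 3 and 5. With the array set as a random block 0 of all 20652 probes passed for cas (adjusted p = 1.00 for each of the 4).

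In the comparison of mus with dom 1 of the 53 probes was higher, where 0.484% of all probes were. This was Scnn1g, a subunit of the sodium channel of the collecting duct. It lay between 0.27 and 0.69 in mus and between -0.30 and 0.00 in dom, and the groups did not overlap (+0.52 ± 0.10, limma adjusted p = 0.00930). How many of all probes separate mus from dom was not counted. Scnn1g missed the threshold from the second spot alone. For ssp 0 of 53 passed, where 0.0436% of all probes did. Against the pool 12 of 53 were higher and 8 lower in the musculus groups, where 17.4% and 14% of all probes were, with Ehd3, a membrane trafficking gene of the glomerular endothelium, the lowest named (-0.48 ± 0.06, adjusted p = 1.8e-06). Of the 10 glomerular probes 1 was higher and 2 were lower there, and 0 passed in the other 4 comparisons. The median difference of the 53 probes was between -0.01 and 0.03 in all 5 comparisons.

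Among 6 genes known as androgen-responsive in male mouse kidney, Kap included, 5 were lower than the pool in the musculus groups and 0 higher, where 14% of all probes were lower and 17.4% higher. Besides Kap these included Acsm3 (-0.14 ± 0.03, limma adjusted p = 0.00110) and Cyp4b1 (-0.20 ± 0.05, adjusted p = 0.00153). With the array set as a random block Kap (adjusted p = 0.654), Acsm3 (0.999) and Cyp4b1 (0.999) missed the threshold, and 122 of 20652 probes passed. In spretus 1 of 6 was higher than in the musculus groups, where 3.03% of all probes were. This was Odc1, the ornithine decarboxylase that starts polyamine synthesis (+0.81 ± 0.19, limma adjusted p = 0.0104). Its spretus values ran from 0.07 to 1.41, against -0.93 to 0.32 in the musculus arrays, and the groups overlapped. Without spretus 01, the array at 1.41, its difference was 0.39 and missed the threshold (limma adjusted p = 0.150), and without spretus 02 it was 1.06 and passed (adjusted p = 0.00386). With the array set as a random block 0 of the 6 passed. The mean of the 6 genes was lowest in dom 01 (-0.62) and ssp 05 (-0.54).

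Markers of other cells in these organs are given beside the kidney genes. Of the hepatocyte genes, in spretus 7 of 19 were lower (4.46% of all probes were), among them Ttr (-1.22 ± 0.24, limma adjusted p = 0.00294), Trf (-0.48 ± 0.10, adjusted p = 0.00580) and Fgb (-0.42 ± 0.10, adjusted p = 0.0105). Without spretus 02, 1 of 18 tested was lower, and with the array set as a random block 0 of 19. In cas 2 of 19 were higher (0.852% of all probes were), Serpina1a and Serpina1b. Their calls were lost in 12 and 13 of 15 fits without 1 array, in 7 of 7 and 6 of 8 other settings, and with the array set as a random block. Against the pool 17 of 19 were higher in the musculus groups, where 17.4% of all probes were. Of 3 adrenal genes, 1 was higher in spretus (3.03% of all probes were), Cyp11a1 (+0.72 ± 0.09, limma adjusted p = 2.6e-05), with and without spretus 02. Of 4 blood genes, 1 was higher in spretus, Hbb-b2 (+0.74 ± 0.22, limma adjusted p = 0.0427), with 0 of 4 past the threshold without spretus 02. In cas 1 of 4 was higher (0.852% of all probes were), Hba-a1 (+1.01 ± 0.19, limma adjusted p = 0.0109). Hba-a1 averaged 0.22 in spretus, 0.67 in ssp, 1.30 in cas, 0.18 in mus and 0.40 in dom. Hbb-b2 averaged 0.16 in cas, below 0.28 in mus and 0.48 in dom. The part of these other cells in the differences of Umod and Slc5a2 was not tested. Immune, endothelial, fat, pancreas and biliary lists had 0 probes past the threshold in the 4 comparisons among mouse groups.

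Among 12630 probes with 1 gene symbol and a value on all arrays, the deviations most like the mean of the 10 genes were those of Ptp4a2 (r = 0.76), Myef2 (0.76), Epx (0.75), Slc35b4 (0.75) and Pradc1 (0.74). The most opposed were Nptn (-0.78), Tmem101 (-0.78), Sycp1 (-0.76), Etv4 (-0.74) and Orc6 (-0.72). On log ratios the most like ran from 0.46 (Myef2) to 0.75 (Pradc1), and the most opposed from -0.77 (Etv4) to -0.16 (Nptn). None of these probes is in the kidney lists, and Kap weighs most in the 10-gene mean. For the single genes, the nearest probes on deviations were chosen after values were seen. All of these are extremes of many correlations over 24 arrays, and no background for such extremes was computed. The nearest probes are therefore a description only. They were Fbxo6 for Slc22a6 (r = 0.89), Isl1 for Slc34a1 (0.84), Lsm7 for Slc12a3 (0.83), Rps14 for Napsa (0.83) and Aspn for Miox (0.80). For Kap it was Lrp2, the endocytic receptor megalin of the proximal tubule (0.80, with 0.66 on log ratios). They were Mia for Cdh16 (0.77), Pradc1 for Aqp2 (0.76), Cyp8b1 for Slc5a2 (0.75) and Tsnaxip1 for Umod (0.72, with -0.30 on log ratios).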

How the data were processed

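RNA of liver/kidney, brain and testis was measured on 72 arrays. Per array, the authors deposited ratios taken here as log2. For the scale and direction of these ratios, and for how background was corrected and arrays normalised, the answer is not given in the sources used here. Duplicate spots were averaged (22320 pairs), 1488 single spots were dropped, and each array was centred on its median. Groups come from the array titles, and for 1 array, brain mus 08, the channel label names another sub-species. The test was the moderated fit of limma (lmFit and eBayes; version 3.58.1, under R 4.3.3) with each of the 5 groups as a coefficient over 24 arrays, two-sided, adjusted by Benjamini-Hochberg over 20652 probes at 0.05. Differences between tissues came from 1 model of 72 arrays that took animals as random effects. The fits were checked on simulated data. Animal numbers were not taken to pair the mice. Same-numbered arrays of different groups correlated at -0.12 to 0.14 in their deviations (27 pairs), and differently numbered arrays at -0.22 to 0.28 (198 pairs). A shared order of processing was not tested. Array sets came from shared missing spots. Plots were drawn with matplotlib 3.10.9 under Python 3.11.15.

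The 10 genes and the lists were chosen with earlier results of these data known. All 10 are named. Of each other list, names come from the up to 3 probes past the threshold with the smallest p per comparison, and the 5 probes most and least like the 10-gene mean. Promoters are from the RefSeq table, whose match was by gene identifier. Alternatives were quantile normalisation, no centring, array weights, single spots, complete probes, the array set or replicate number as a block, and leaving out each array. No probe sequences or gene coordinates of the array were used. Precision is limited by the number of arrays.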

Additional observations from a re-analysis of the deposited data

Results flagged for a closer look

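Of 90 groups of 6 arrays tested, 13 held an array far from the other 5, where chance gives about 1 in 20 groups if values are normal. The 90 groups are the 10 genes on the same arrays, so they are not independent and the counts cannot be compared strictly. In brain, ssp 05 and mus 05 lay in an array set other than that of some arrays of their groups. In liver/kidney these were Slc34a1 in ssp 03 (-0.29, others -0.13 to -0.06), Slc22a6 in mus 08 (-0.19, others 0.02 to 0.07) and Aqp2 in dom 01 (-0.96, others -0.56 to -0.44). In brain, ssp 05 stood apart in Umod (1.49, others -0.16 to 0.36), Kap (1.75, others -0.05 to 0.39) and Aqp2 (0.47, others -0.17 to 0.01). On that brain array 9 of the 10 genes were above the pool, with Cdh16 at 1.06, and 4 of 49 other kidney genes exceeded 0.5, against 0 to 3 on the other ssp brain arrays. Also in brain were Miox in ssp 03 (-1.86), Cdh16 (0.49) and Aqp2 (0.34) in mus 05, Umod (-0.68) and Aqp2 (0.62) in dom 13, and Slc12a3 in dom 03 (0.28). Duplicate spots in brain correlated at 0.215 for Miox and 0.177 for Slc12a3, beside a median of 0.432 over all probes. For Cdh16, Aqp2, Umod and Kap they correlated at 0.676, 0.764, 0.863 and 0.954. Among the 5 brain mus arrays other than mus 08, whose labels conflict, mus 05 still stood apart in Aqp2. In Cdh16 the gap of mus 05 was 0.669 of the range both with and without mus 08. That passed the limit for 6 arrays and not the limit for 5. In testis it was Miox in dom 13 (0.19), a gene whose duplicate spots correlated at 0.18 over the testis arrays.

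Of 100 tests of a difference between liver/kidney and another tissue, 10 passed an adjusted p of 0.05 in limma. For spretus against the musculus groups, Aqp2 differed from testis by 0.55 and Miox by -1.54. For the musculus groups against the pool, Kap differed by -0.90 from brain and by -0.64 from testis, Aqp2 by -0.59 and -0.62, and Slc5a2 by 0.22 and 0.24. Slc34a1 differed from testis by -0.14 and Slc22a6 by 0.22.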

How the results depend on the processing

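Of the 10 genes, 2 passed for spretus and 1 did under quantile normalisation, array weights, the second spot alone and the replicate block, each time Umod. None (0) passed with the array set as a random block, or within the set of cas with spretus 01 and 03. Leaving out each array gave 1 to 2. For mus against dom the count of 0 became 1 (Napsa) with array weights. For cas the count of 1 became 0 with the second spot, the array set as a random block and the replicate block, and leaving out each array gave 0 to 1. Against the pool 5 became 1 with the array set as a random block. From the first spot alone it was 4, without Slc34a1, and from the second spot alone 4, without Umod. Under quantile normalisation and array weights it was 6, with Slc12a3 added. For ssp the count stayed 0 under all alternatives run. Pax2 against the pool, -0.13 in the main setting, was 0.013 from the first spot. Animal numbers were not taken to pair the mice, and why calls were lost under the replicate block was not tested. Over all probes the spretus count was 1547, and 113 with the array set as a random block, 633 under the replicate block, 719 with array weights and 899 under quantile normalisation. Leaving out each array gave 955 (without spretus 02) to 2125 (without spretus 01), with 1693 without spretus 03. The median pair correlation of the deviations, 0.050, ran from -0.149 (cas with spretus 01 and 03, 5 arrays) to 0.086 (without the spretus arrays). The SD over the 45 pairs, 0.239, is not an error of that median. Under quantile normalisation the median SD within groups was 0.180 in liver/kidney, 0.186 in brain and 0.137 in testis. Causes were not tested. Groups of 3 arrays limit the spretus and cas comparisons.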

Other observations

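Genes of the other kidney lists also differed between the 4 musculus groups and the C57BL6 pool, a comparison in which 31.4% of all probes passed in limma. Aqp1, the water channel of the proximal tubule, was higher by 0.23 ± 0.04 on the log2 scale (limma adjusted p = 6.9e-05), and Cyp27b1, which activates vitamin D, by 0.21 ± 0.05 (adjusted p = 0.00523). Scnn1g was higher by 0.18 ± 0.04 (adjusted p = 0.00111) and Hsd11b2, which shields the mineralocorticoid receptor from corticosterone, by 0.13 ± 0.03 (adjusted p = 0.00699). Of the glomerular genes, Nphs1, which encodes nephrin, was lower (-0.07 ± 0.03, adjusted p = 0.0466), a call lost in 12 of 21 fits without 1 array and 4 of 8 other settings. Its group means were -0.20 in ssp, -0.09 in cas, -0.003 in mus and 0.001 in dom. Of the hepatocyte genes, Trf (0.37 ± 0.04, adjusted p = 9.9e-08), Apoc3 (0.36 ± 0.05, adjusted p = 2.5e-06) and F2 (0.42 ± 0.06, adjusted p = 7.2e-06) were higher. All of these calls were lost with the array set as a random block, where 122 of 20652 probes passed. The pool is 1 sample in a fixed channel, so dye and group cannot be told apart here either.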
